A study of Mus musculus with 9 samples.

Results

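The genes described here are 10 immediate early genes of 4 name groups: the zinc finger factors Egr1, Egr2 and Egr3, the orphan nuclear receptors Nr4a1, Nr4a2 and Nr4a3, the early response genes Ier2, Ier3 and Ier5, and the Krüppel-like factor Klf6. They were chosen by symbol, each had 1 feature of its own on the array, and all 10 were measured, among 22180 genes in all. Expression was measured with Affymetrix Mouse Gene 2.1 ST arrays in TAMH cells, a mouse hepatocyte line that takes its name from transgenic mice that express transforming growth factor alpha, a ligand of the EGF receptor. There were 3 arrays of cells given diquat at 18 µM for 9 h, 3 of cells given paraquat at 126 µM for 9 h, and 3 of cells kept in medium alone for 9 h (control). All 3 groups shared a culture medium that contained dexamethasone, a glucocorticoid, with nicotinamide, gentamicin, insulin, transferrin and selenium. Levels are log2 values made by the authors with RMA, which subtracts background, brings the arrays to a common distribution and combines probes, and a change is a difference between group means of these values.

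Immediate early genes are transcribed from factors already present in the cell, without new protein synthesis, within minutes of a signal such as a growth factor or a stress. The classic route runs from a receptor through the ERK kinases to serum response factor and its ternary complex partners, which bind CArG boxes, and a second route runs through CREB, which binds cAMP response elements. The products include transcription factors that drive a later wave of genes, and feedback genes such as phosphatases then switch the route off. Most of these messenger RNAs are short-lived, so an array at a single late time shows what remains or is newly made at that time and not the first peak, which was not measured here. Diquat and paraquat are bipyridylium herbicides that undergo redox cycling, in which electrons taken from cellular enzymes pass to oxygen as superoxide.

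Egr1, Egr2, Nr4a1, Ier3 and Ier5 were higher with each compound than in control, by 1.29-fold to 1.84-fold, while Egr3, Nr4a2, Nr4a3, Ier2 and Klf6 did not pass the test with either compound. With diquat, 5 of the 10 genes passed limma's adjusted p of 0.05, all 5 higher, where 7.02% of all genes passed in either direction and 4.13% passed as higher. With paraquat, the same 5 genes passed, again all higher, where 4.57% of all genes passed and 2.33% passed as higher. The median log2 change of the 10 genes was 0.32 with diquat and 0.27 with paraquat, against medians of -0.02 and -0.0033 over all genes. Both comparisons use the same control arrays. Calls as lower made up 2.89% of all genes with diquat and 2.24% with paraquat, and 0 of the 10 genes were among them. At an unadjusted p under 0.05, 6 of the 10 genes passed with each compound, where 21.6% of all genes did with diquat and 15% with paraquat. The diquat arrays lay wholly above the control arrays for 6 of the 10 genes and wholly below for 0, where all genes did so in 10.1% and 11.2% of cases, 21.3% in all. The paraquat arrays lay wholly above for 5 and wholly below for 1, where all genes did so in 9.05% and 10.4%, 19.4% in all. By size of rise among all 22180 genes, Ier3 ranked 26 with diquat and 62 with paraquat, Egr1 66 and 75, and Nr4a1 134 and 62. Diquat raised 917 and lowered 641 of all genes, so that 58.9% of the calls were higher. That share was 78.2% after each array was centred on its median and 49.9% after quantile normalization, and the calls of these 10 genes were the same under both scalings.

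**Figure D1:**
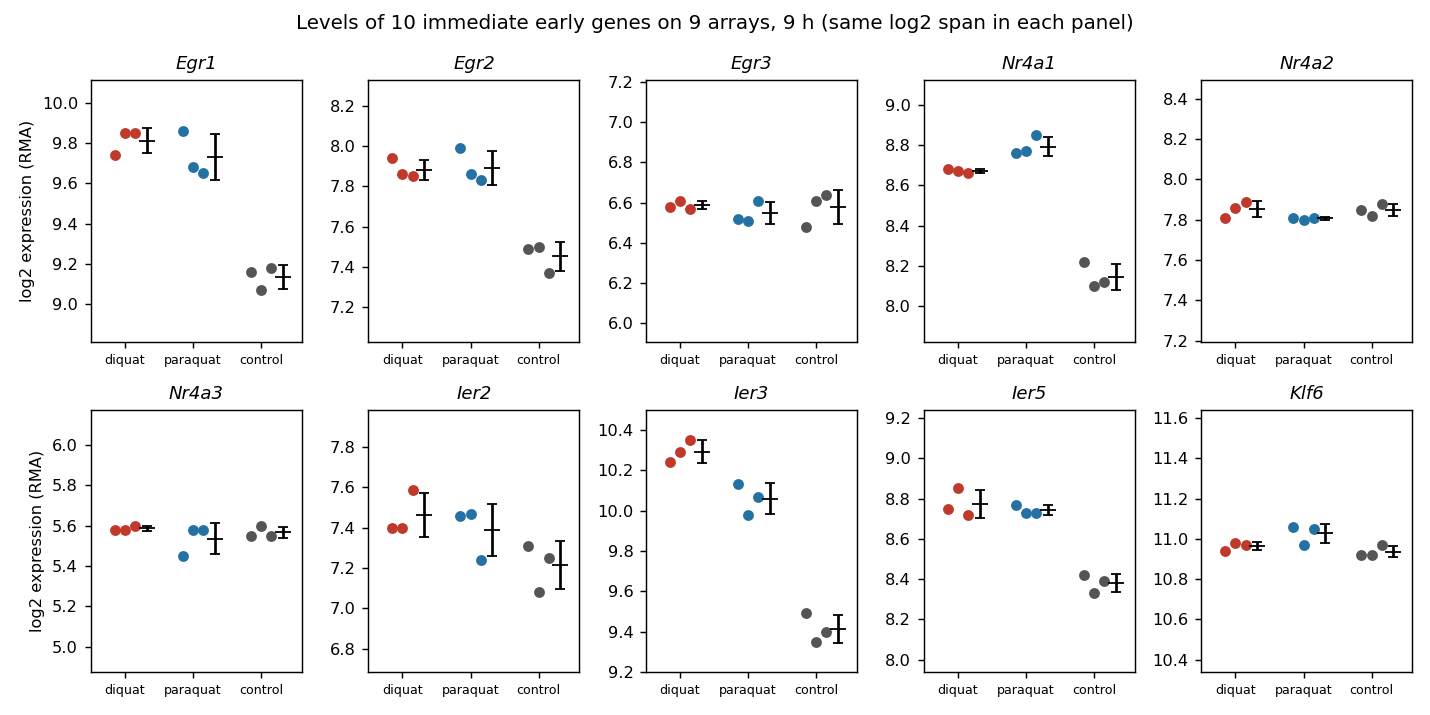
Log2 level of each gene on every array (points; bars are the mean ± SD of 3 arrays), with diquat, paraquat and control from left to right and the same span of log2 units in every panel. The 6 treated arrays lie above the 3 control arrays for Egr1, Egr2, Nr4a1, Ier3 and Ier5 and overlap them for Egr3, Nr4a2, Nr4a3, Ier2 and Klf6.

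Egr1 encodes a zinc finger factor that binds GC-rich sites and is a standard readout of ERK signalling. Its log2 level was 9.74, 9.85 and 9.85 on the diquat arrays and 9.86, 9.68 and 9.65 on the paraquat arrays, against 9.16, 9.07 and 9.18 on the control arrays. Every treated array lay above every control array, and the diquat and paraquat arrays overlapped. Egr1 was 1.60-fold higher with diquat (log2 change 0.68 ± 0.06, SE, limma adjusted p = 0.000139). With paraquat it was 1.51-fold higher (0.59 ± 0.06, SE, adjusted p = 0.000417).

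Egr2, also called Krox20, is a close relative of Egr1 known for its part in hindbrain patterning and in the myelination of peripheral nerve. It had log2 levels of 7.94, 7.86 and 7.85 with diquat and 7.99, 7.86 and 7.83 with paraquat, against 7.49, 7.50 and 7.37 in control. Neither set of treated arrays overlapped the control arrays, and the treated sets overlapped each other. The change was 1.35-fold with diquat (log2 change 0.43 ± 0.05, SE, limma adjusted p = 0.00114) and 1.36-fold with paraquat (0.44 ± 0.05, SE, adjusted p = 0.00134).

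Egr3, another member of the family, is known for its roles in muscle spindles and T cells. Its levels were 6.58, 6.61 and 6.57 with diquat and 6.52, 6.51 and 6.61 with paraquat, against 6.48, 6.61 and 6.64 in control. All 3 groups overlapped. The 95% interval of the fold change was 0.93 to 1.08 with diquat and 0.91 to 1.05 with paraquat, and the adjusted p values in limma were 0.931 and 0.88.

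Of these 3 genes, windows from the RefSeq promoter table (GRCm38.p6) were searched for Egr2. The 250 bases before the start of one Egr2 transcript are shown because they hold both kinds of element named above, a CArG box and cAMP response core sites. The capitals mark the CArG box and the core sites TGACG, searched on both strands (so that CGTCA is the same site read from the other strand).
Egr2, chr10:67537619-67537868, plus strand: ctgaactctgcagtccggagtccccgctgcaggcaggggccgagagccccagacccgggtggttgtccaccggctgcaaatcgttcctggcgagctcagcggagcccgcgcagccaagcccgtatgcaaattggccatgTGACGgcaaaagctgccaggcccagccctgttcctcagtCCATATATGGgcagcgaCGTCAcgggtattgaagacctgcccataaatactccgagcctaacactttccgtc
The CArG box began 72 bases before the start, and the core sites began 111 and 55 bases before it. Among 32851 such windows of 250 bases, a CArG box was found in 1.47%, at least 1 core site in 17.8% and at least 2 in 3.9%. The table holds 5 windows for Egr2, which overlap in part; 4 of them contain a CArG box. A match describes the letters of the window and no binding.

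Nr4a1 encodes Nur77, a nuclear receptor with no known hormone that takes part in the hormonal control of glucose production in liver and in the death of T cells. Its levels were 8.68, 8.67 and 8.66 with diquat and 8.76, 8.77 and 8.85 with paraquat, against 8.22, 8.10 and 8.12 in control. All 6 treated arrays lay above the control arrays, and the 3 paraquat arrays lay above the 3 diquat arrays. Nr4a1 was 1.44-fold higher with diquat (log2 change 0.52 ± 0.04, SE, limma adjusted p = 7.39e-05) and 1.57-fold higher with paraquat (0.65 ± 0.04, SE, adjusted p = 1.86e-05).

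Nr4a2, or Nurr1, is the family member needed for dopamine neurons. It had log2 levels of 7.81, 7.86 and 7.89 with diquat and 7.81, 7.80 and 7.81 with paraquat, against 7.85, 7.82 and 7.88 in control. The diquat arrays overlapped the control arrays. The paraquat arrays all lay just below them, as was the case for 10.4% of all genes in that comparison. The log2 change was 0.00 ± 0.04 with diquat (adjusted p = 0.971) and -0.04 ± 0.04 with paraquat (adjusted p = 0.688, SE and limma for both).

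Nr4a3, or NOR1, had levels of 5.58, 5.58 and 5.60 with diquat and 5.45, 5.58 and 5.58 with paraquat, against 5.55, 5.60 and 5.55 in control. The groups overlapped. Its mean over the 9 arrays, 5.56, was the only one of the 10 below the median gene's 6.42, and no detection calls were used here, so a level this low cannot be told from background. The 95% interval of the fold change was 0.95 to 1.08 with diquat and 0.92 to 1.05 with paraquat (adjusted p = 0.827 and 0.856, limma).

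The windows before the starts of the 3 Nr4a genes are shown because all 3 hold the same number of cAMP response core sites. Whether these sites bear on the changes was not tested. Capitals mark TGACG on either strand.
Nr4a1, chr15:101266596-101266845, plus strand: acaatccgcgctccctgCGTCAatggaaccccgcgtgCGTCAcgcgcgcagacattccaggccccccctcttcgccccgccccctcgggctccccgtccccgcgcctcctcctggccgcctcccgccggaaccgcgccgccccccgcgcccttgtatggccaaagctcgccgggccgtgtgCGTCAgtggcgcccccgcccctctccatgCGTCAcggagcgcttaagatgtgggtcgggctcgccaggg
Nr4a2, chr2:57124004-57124253, minus strand: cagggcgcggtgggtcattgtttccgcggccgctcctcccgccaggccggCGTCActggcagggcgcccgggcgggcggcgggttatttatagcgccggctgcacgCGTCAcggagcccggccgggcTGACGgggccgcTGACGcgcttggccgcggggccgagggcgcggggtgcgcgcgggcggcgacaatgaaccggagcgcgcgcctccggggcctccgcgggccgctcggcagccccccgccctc
Nr4a3, chr4:48045055-48045304, plus strand: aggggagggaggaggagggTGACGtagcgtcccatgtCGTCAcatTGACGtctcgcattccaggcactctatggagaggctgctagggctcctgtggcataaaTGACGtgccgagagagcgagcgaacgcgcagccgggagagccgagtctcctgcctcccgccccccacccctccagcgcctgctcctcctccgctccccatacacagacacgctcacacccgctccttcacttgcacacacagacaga
Each window held 4 core sites, a number reached by 0.137% of the 32851 windows. None of the 3 held the full palindrome TGACGTCA, found in 1.55% of windows, or a CArG box. The windows of Nr4a1 and Nr4a2 also held 1 EGR site each (GCGNGGGCG on either strand, found in 4.7% of windows), and that of Nr4a3 held none. The core sites of Nr4a1 began 233, 213, 69 and 40 bases before the start, those of Nr4a2 200, 144, 123 and 111, and those of Nr4a3 231, 213, 205 and 147.

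**Figure D2:**
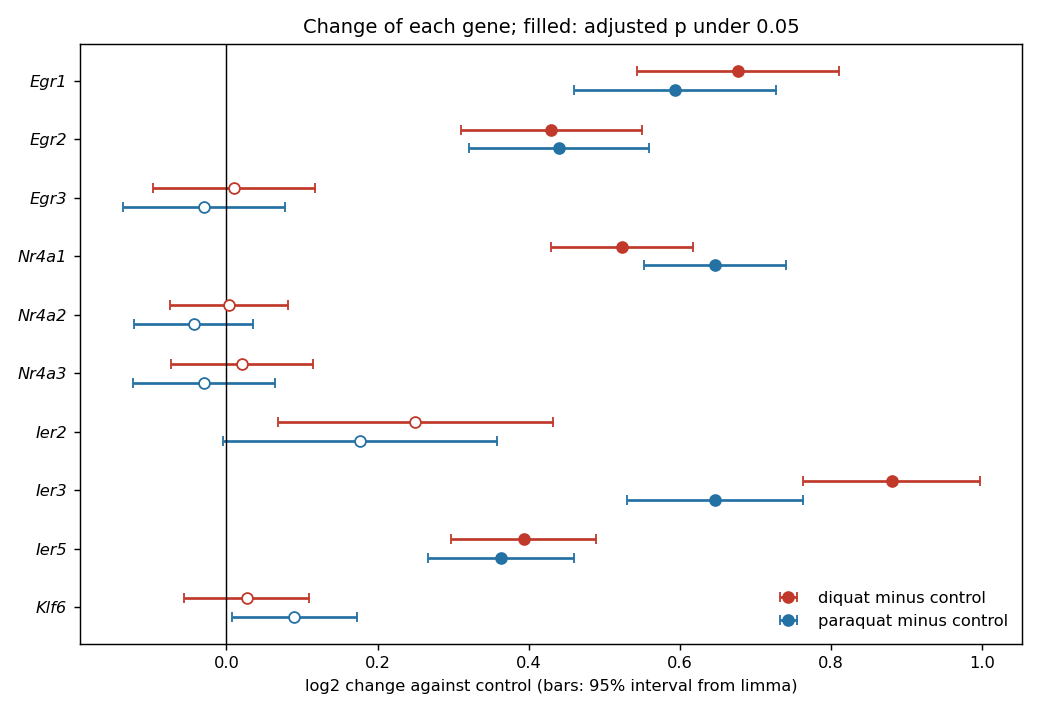
Log2 change of each gene against control with its 95% interval from limma, diquat above paraquat in each row; filled points passed an adjusted p of 0.05. The filled points are those of Egr1, Egr2, Nr4a1, Ier3 and Ier5, between 0.36 and 0.88, and the open points lie between -0.04 and 0.25.

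Ier3, also called IEX-1, encodes a small protein that modulates cell survival under stress and is a substrate of ERK. It showed the largest log2 change of the 10 genes with diquat. The levels were 10.24, 10.29 and 10.35 with diquat and 10.13, 9.98 and 10.07 with paraquat, against 9.49, 9.35 and 9.40 in control. The 3 groups did not overlap, with diquat highest and control lowest. Ier3 was 1.84-fold higher with diquat (log2 change 0.88 ± 0.05, SE, limma adjusted p = 9.34e-06) and 1.57-fold higher with paraquat (0.65 ± 0.05, SE, adjusted p = 8.56e-05).

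Ier5 shares a conserved start with Ier2 and is known as a partner of a phosphatase that acts on the heat shock factor HSF1. Its levels were 8.75, 8.85 and 8.72 with diquat and 8.77, 8.73 and 8.73 with paraquat, against 8.42, 8.33 and 8.39 in control. All treated arrays lay above the control arrays and the treated sets overlapped. Ier5 was 1.31-fold higher with diquat (log2 change 0.39 ± 0.04, SE, limma adjusted p = 0.000521) and 1.29-fold higher with paraquat (0.36 ± 0.04, SE, adjusted p = 0.00113).

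Ier2, a nuclear protein gene induced by growth factors, had the widest spread among the 10 genes in each of the 3 groups. Its levels were 7.40, 7.40 and 7.59 with diquat and 7.46, 7.47 and 7.24 with paraquat, against 7.31, 7.08 and 7.25 in control. The diquat arrays lay above the control arrays, as they did for 10.1% of all genes, and the paraquat arrays overlapped them. The fold change was 1.19 with diquat (95% interval 1.05 to 1.35, limma adjusted p = 0.107) and 1.13 with paraquat (1.00 to 1.28, adjusted p = 0.35). Neither passed, and with diquat the interval includes the 1.31-fold change of Ier5.

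The 250 bases before the start of Ier3 are shown as those of the gene with the largest change with diquat. They contain neither a CArG box nor a core site. The capitals mark a match to the NF-kB consensus, searched by name on both strands and found in 3.9% of windows.
Ier3, chr17:35821463-35821712, plus strand: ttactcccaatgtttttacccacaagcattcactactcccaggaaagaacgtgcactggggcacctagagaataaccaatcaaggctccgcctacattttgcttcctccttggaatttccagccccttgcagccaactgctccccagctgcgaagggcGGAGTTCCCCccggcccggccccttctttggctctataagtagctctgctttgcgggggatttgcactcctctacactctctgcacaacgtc
This match began 92 bases before the start. The windows of Ier5 and Klf6 contained no match to any of the motifs searched, which also included the AP-1 site TGANTCA (6.75% of windows), the Nur77 site AAAGGTCA (1.34%), the ATF4 site TGATGNAA (3.45%) and TATAAA (12.4%; 1 match in Nr4a2). The full palindrome contains the core site on both strands. In all, windows of 7 of the 10 genes were searched. Windows of the 10 genes on 1 chromosome were left out, so this is not a count of what the promoter table holds.

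Klf6 encodes a zinc finger factor of the Krüppel-like family, known in liver from the activation of stellate cells after injury. Its levels were 10.94, 10.98 and 10.97 with diquat and 11.06, 10.97 and 11.05 with paraquat, against 10.92, 10.92 and 10.97 in control. Both treated sets overlapped the control arrays. The fold change was 1.02 with diquat (95% interval 0.96 to 1.08, limma adjusted p = 0.726) and 1.06 with paraquat (1.01 to 1.13, adjusted p = 0.278).

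The genes of one name group did not all show the same change on the arrays. This was tested on the difference between 2 genes within each array, for all 9 pairs inside the EGR, NR4A and IER groups, with two-sided exact permutation tests over arrays and Benjamini-Hochberg adjustment over the 9 pairs. With 3 arrays against 3, the smallest p such a test can give is 0.1, so no pair could pass for a compound alone. The lowest adjusted p was 0.15 with diquat and 0.113 with paraquat. The 6 arrays of both compounds, which are 2 exposures, were also set together against the 3 control arrays, where the smallest p is 0.0238. In that test the excess of Egr1 over Egr3 was larger with the compounds than in control by 0.65 on the log2 scale, and that of Egr2 over Egr3 by 0.45 (exact p = 0.0238 and adjusted p = 0.0357 for each). The excess of Nr4a1 over Nr4a2 was larger by 0.61, with the same p values from the exact test. All 6 treated arrays lay above all 3 control arrays in each of these 3 pairs. The excess of Nr4a1 over Nr4a3 was larger by 0.59, but a feature whose level cannot be told from background cannot show a change, so the pairs with Nr4a3 are given as values and show nothing of unequal change. Egr3, with a mean of 6.57, also lay near the median gene's 6.42. Without detection calls a change of Egr3 could be missed, so the pairs with Egr3 are limited in the same way. Ier3 gained on Ier5 by 0.39 with the same exact p, and Ier2 lost against Ier3, with a difference of -0.55 (exact p = 0.0238, adjusted p = 0.0357).

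The other 3 pairs did not pass after adjustment. Egr1 gained on Egr2 by 0.20, with 1 treated array inside the control range (exact p = 0.0476, adjusted p = 0.0612). The difference between Ier2 and Ier5 changed by -0.17 (exact p = 0.0952, adjusted p = 0.107). That between Nr4a2 and Nr4a3 changed by -0.02. A difference within an array shows unequal change on the array's scale, and features can differ in how steeply they respond.

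**Figure D3:**
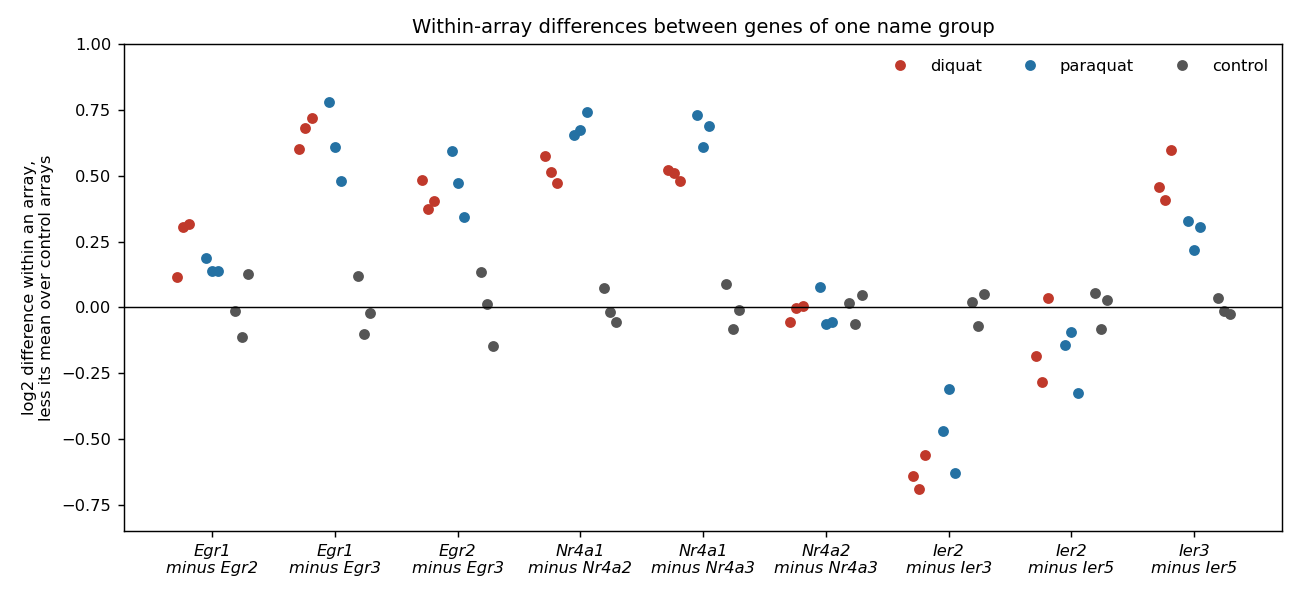
Log2 difference between 2 genes of one name group within each array, less the mean of that difference over the control arrays; each point is an array, with diquat, paraquat and control from left to right in each pair. The treated arrays lie above control for Egr1 and Egr2 against Egr3, for Nr4a1 against Nr4a2 and Nr4a3 and for Ier3 against Ier5, and below it for Ier2 against Ier3.

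Paraquat and diquat are different compounds and were given at different concentrations, 126 and 18 µM, so their values stand side by side here as 2 exposures. In limma, 0 of the 10 genes and 0% of all genes passed the adjusted p between them, while 2 of the 10 genes and 10.7% of all genes had an unadjusted p under 0.05. Ier3 averaged 10.06 ± 0.08 with paraquat and 10.29 ± 0.06 with diquat (SD, n = 3 each), a fold of 0.85 with a 95% interval of 0.78 to 0.92 (limma adjusted p = 0.313). Nr4a1 averaged 8.79 ± 0.05 with paraquat and 8.67 ± 0.01 with diquat (SD, n = 3 each), a fold of 1.09 with an interval of 1.02 to 1.16 (limma adjusted p = 0.409). In both genes the 2 sets of arrays did not overlap, as was the case for 10.5% of all genes (paraquat above in 5.36% and below in 5.18%). For the other 8 genes the sets overlapped, and the 95% intervals of the paraquat to diquat fold all lay within 0.84 to 1.11. The intervals of Egr1, 0.86 to 1.04, and of Egr2, 0.93 to 1.09, include no difference.

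Other immediate early transcription factors were taken as a list of 16, of which 15 were measured. With diquat 7 rose and 0 fell, with a median log2 change of 0.20, and with paraquat 4 rose and 0 fell, with a median of 0.12. Of all genes, 4.13% rose and 2.89% fell with diquat, and 2.33% rose and 2.24% fell with paraquat. The count of 7 dropped to 4 without control replicate 1 or 2, to 4 with the replicate number as a block and to 3 in the fit of the 2 groups alone, and 1 gene fell without diquat replicate 2. The count of 4 with paraquat dropped to 2 without paraquat replicate 3. The rises were led by Atf3, a stress-induced factor of the CREB family, at 1.90-fold with diquat and 2.22-fold with paraquat. Csrnp1 rose 1.37-fold and 1.38-fold, and Myc, a transcription factor of cell growth, rose 1.30-fold and 1.33-fold. Srf, which encodes serum response factor, rose 1.25-fold and 1.20-fold. Maff, a small MAF protein, rose 1.30-fold with diquat. The log2 change of Fos, an AP-1 subunit, was 0.01 ± 0.08 with diquat and 0.10 ± 0.08 with paraquat (SE, limma adjusted p = 0.942 and 0.669). Fos was named here after its value was seen. Its mean was 6.62 with diquat, 6.70 with paraquat and 6.60 in control, near the median gene's 6.42. The Maff call was lost without control replicate 1 or 2 (adjusted p = 0.103 and 0.114), the Myc call for diquat with those 2 groups alone (0.0557), and the Myc and Srf calls for paraquat without paraquat replicate 3 (0.0527 and 0.0569).

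Immediate early genes that encode other proteins numbered 16, all measured. With each compound 6 rose and 0 fell, where 4.13% of all genes rose with diquat and 2.33% with paraquat. The medians were 0.05 and 0.005. Without control replicate 2, 1 of them fell with diquat, and without paraquat replicate 1, 2 fell with paraquat. With diquat 1 also fell under a robust prior with a trend, with dim genes filtered out and after quantile normalization. With paraquat 1 fell with dim genes filtered out and under array weights. The largest changes were in Ptgs2, the inducible cyclooxygenase, with log2 changes of 2.29 and 2.14, and in Plk3, a stress-responsive kinase, with 0.92 and 0.91. Tiparp rose as well, by 1.53-fold under diquat and by 1.32-fold under paraquat. Zfp36, which encodes tristetraprolin, a protein that speeds the decay of AU-rich messenger RNAs, rose 1.42-fold and 1.27-fold. The Zfp36 call for paraquat was lost without any 1 of the control arrays or without paraquat replicate 1 or 2 (adjusted p = 0.0533 to 0.114). Of 7 other measured genes with a part in the turnover of AU-rich messenger RNAs, 1 rose with each compound, Zfp36l1, at 1.42-fold and 1.30-fold. The sizes for Tiparp and Zfp36l1 depend on the feature kept. With the mean of a gene's features, the log2 change of Tiparp was 0.32 with diquat and 0.20 with paraquat, against 0.61 and 0.40 for the brightest feature. That of Zfp36l1 was 0.29 and 0.24, against 0.50 and 0.38, and both genes still passed with each compound.

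Genes that act upstream of the 10, for ternary complex factors, CREB and its coactivators and ERK pathway kinases, were measured for 14 of 18 entries. With diquat 1 of the 14 rose, the CREB coactivator gene Crtc3 at 1.14-fold, and with paraquat 0 passed, where 7.02% and 4.57% of all genes passed. Srf, which acts in the same route and rose with both compounds, is counted above among the transcription factors. The highest log2 changes with paraquat were 0.17 for Elk1 and 0.17 for Crtc3 (limma adjusted p = 0.0792 and 0.0666). The Crtc3 call for diquat was lost without any 1 of the control arrays or without diquat replicate 2 or 3 (adjusted p = 0.0537 to 0.112), and with paraquat Crtc3 passed without paraquat replicate 2 (adjusted p = 0.0358). With dim genes filtered out, Elk1 and Crtc3 both passed with paraquat (adjusted p = 0.0423 and 0.0354), and Crtc3 also passed after quantile normalization and under array weights (0.0346 and 0.0205).

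Feedback genes on the ERK and p38 route showed the highest share of calls among the 8 lists. Of 12 measured, 9 rose with diquat and 7 with paraquat, where 4.13% and 2.33% of all genes did. With either compound 0 fell, and the medians were 0.29 and 0.22. The list leaves out the phosphatase genes Dusp1 and Dusp2, counted above among immediate early genes that encode other proteins and named after their values were seen. The log2 change of Dusp1 was -0.19 with diquat (limma adjusted p = 0.0548) and -0.08 with paraquat (0.584). That of Dusp2 was -0.07 and -0.01 (0.526 and 0.986), so neither gene rose. Dusp5 and Dusp4, nuclear phosphatases of ERK, rose 1.77-fold and 1.76-fold with diquat and 1.83-fold and 1.84-fold with paraquat. Spry4, a Sprouty inhibitor of receptor signalling, rose 1.46-fold and 1.55-fold, and Dusp8 rose 1.38-fold and 1.42-fold. These lists were written with earlier results on the same arrays known, so their counts describe and do not test the direction.

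EGR corepressors and reported EGR targets numbered 12, with 11 measured. With diquat 6 rose and 0 fell (median 0.26), and with paraquat 4 rose and 0 fell (median 0.11). Rises made up 4.13% of all genes with diquat and 2.33% with paraquat. The growth factor genes Hbegf and Vegfa rose 1.63-fold and 1.73-fold with diquat and 1.67-fold and 1.61-fold with paraquat. F3, the tissue factor gene that starts coagulation, rose 1.37-fold and 1.29-fold, and Pdgfb rose 1.41-fold and 1.27-fold. The corepressor genes Nab1 and Nab2, named after their values were seen, had log2 changes of 0.05 and 0.02 with diquat and 0.04 and 0.10 with paraquat, none past the test.

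Of 11 NR4A partners and reported NR4A targets measured out of 12, 2 fell and 0 rose with each compound, and 9 did not pass the test. Falls made up 2.89% of all genes with diquat and 2.24% with paraquat. Median log2 changes were -0.11 with diquat and -0.04 with paraquat. Rxrg, Fbp1, Fbp2, Pck1, Pomc and Th stood below the median gene's 6.42 in every group. Without detection calls, levels this low cannot be told from background, so these genes show neither a rise nor its absence. With dim genes filtered out, which drops G6pc, 1 fell and 1 rose with diquat. G6pc, the glucose-6-phosphatase gene of glucose production, stood at 5.67 with diquat and 5.68 with paraquat against 6.19 in control, below the median gene in all groups, a log2 change of -0.52 and -0.51. Eno3, an enolase gene, changed by -0.22 and -0.16. Its call for paraquat was lost without any 1 of the 6 arrays compared (adjusted p = 0.0629 to 0.175) and after centring (0.121). Among hepatocyte markers, 3 of 11 measured also fell with each compound.

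Of 13 other Krüppel-like factors measured, 3 rose and 0 fell with diquat, where 4.13% of all genes rose and 2.89% fell. With paraquat 2 rose and 1 fell, where 2.33% and 2.24% of all genes did. The count of 3 dropped to 1 without control replicate 2, and the count that fell with diquat was 1 without control replicate 3, 1 with the 2 groups alone and under array weights, 2 after quantile normalization and 3 with dim genes filtered out. Without control replicate 1 or 2 or paraquat replicate 2 or 3, 1 rose and 0 fell with paraquat. Klf5, a factor of proliferating epithelia, rose 1.32-fold with each compound, Klf16 rose 1.23-fold with each, Klf7 rose 1.15-fold with diquat, and Klf12 fell with paraquat (log2 change -0.35). Calls that depended on a single array were those of Klf5 with diquat (lost without control replicate 2, adjusted p = 0.069) and paraquat (lost without control replicate 1 or 2 or paraquat replicate 2 or 3, 0.0556 to 0.0874). The same held for Klf7 (lost without control replicate 1 or 2, 0.0536 and 0.0697, and at 0.249 with the mean of its features) and Klf12 (lost without any 1 of the control arrays or paraquat replicate 2 or 3, 0.0654 to 0.0884).

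**Figure D4:**
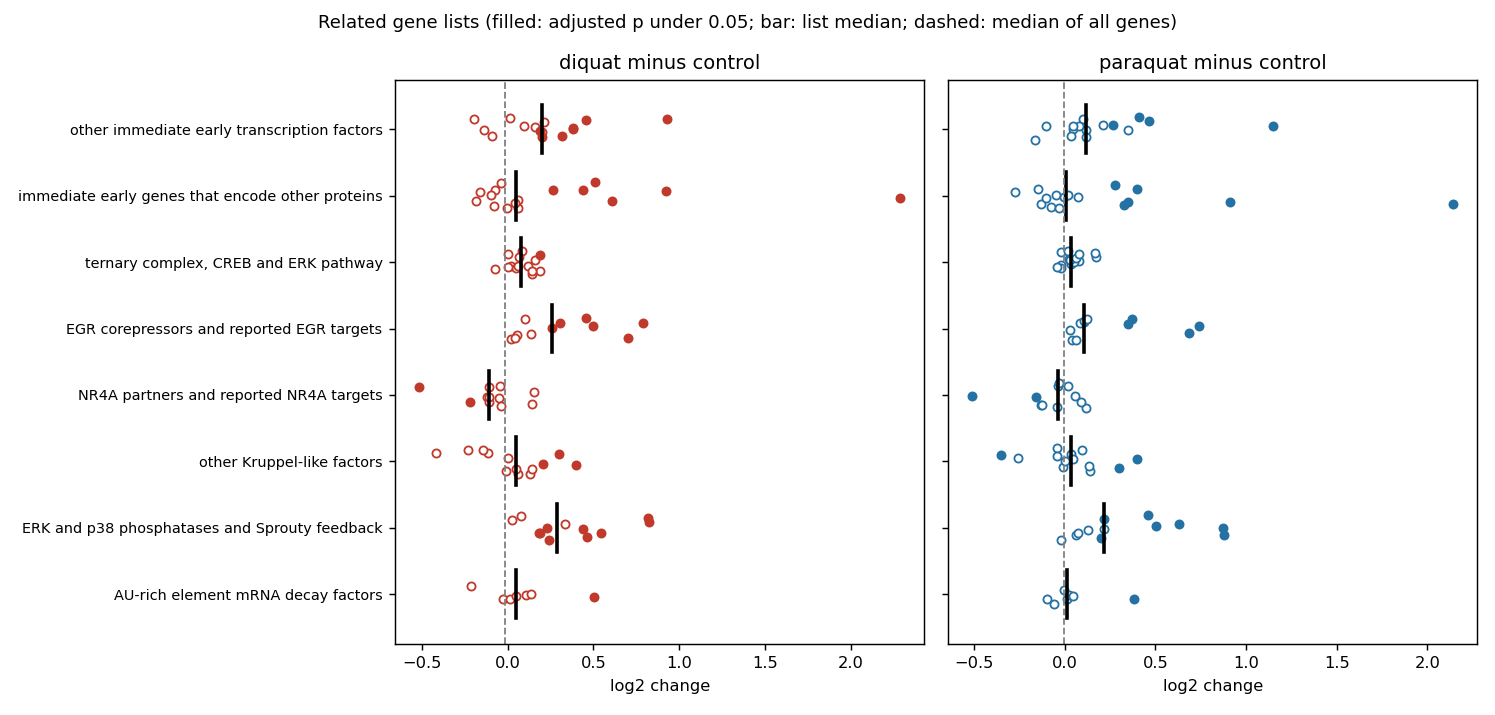
Log2 change of every measured gene of the 8 lists with diquat (left panel) and paraquat (right panel) against control; filled points passed an adjusted p of 0.05, bars are list medians and the dashed line is the median of all genes. The feedback list has the most filled points, every point of the EGR target list lies above 0, and the 2 filled points of the NR4A target list lie below 0 in each panel.

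The genes whose pattern over the 9 arrays lay closest to that of each changed gene were found by the root-mean-square difference of log2 values after each gene's control mean was subtracted. Closest to Egr1 were Zfand2a (0.05), Hilpda (0.07) and Nupr1 (0.08). Closest to Egr2 were Npc1, Mafk and Dgkd (0.04, 0.04 and 0.06). Nr4a1 lay nearest to Tsc22d2, Pparg and the feedback gene Spry4 (0.05, 0.06 and 0.06), and Ier3 to the stress gene Sesn2, the small nuclear RNA gene Rnu12 and Ndrg1 (0.06, 0.07 and 0.08). For Ier5 the nearest were Tinagl1, Eif4ebp1 and the threonyl-tRNA synthetase gene Tars (0.04, 0.05 and 0.05). These are distances over the same 9 arrays and carry no test.

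The arrays were alike, with 0 identical pairs, and the cells carried hepatocyte markers beside some markers of other cell types. All 11 measured hepatocyte markers had means above the median gene, from 7.29 for Serpina1a to 12.73 for Alb, while all 6 endothelial markers had means below it. Markers of other cell types were above it too. Of 6 macrophage and leukocyte markers, 3 were below the median gene, with Ptprc at 5.32, and Cd14 stood at 10.12. Of 6 stellate cell and fibroblast markers, 4 were below it, with Lrat at 5.76, and Col1a1 stood at 9.06. All 5 measured cholangiocyte markers were above it, up to 10.48 for Sox9. The mean of the hepatocyte list moved with treatment, at 10.24 to 10.27 with diquat and 10.19 to 10.32 with paraquat against 10.39 to 10.46 in control. The mean of the leukocyte and macrophage list was 6.85 to 6.94 and 6.92 to 6.95 against 6.85 to 6.91, and of its 6 genes 1 rose with diquat, Cd68, at 1.32-fold, while 2 of 6 lay above 0 and the median log2 change was -0.035; 0 passed with paraquat. The mean of the cholangiocyte list was 8.41 to 8.42 and 8.42 to 8.47 against 8.33 to 8.40, that of the stellate cell and fibroblast list 6.63 to 6.77 and 6.70 to 6.75 against 6.72 to 6.79, and that of the endothelial list 5.60 to 5.71 and 5.71 to 5.76 against 5.71 to 5.77. Among the 5 cholangiocyte markers, 1 rose with diquat, Sox9 at 1.36-fold, and 2 fell, Krt7 and Krt19 (log2 change -0.29 and -0.16). With paraquat Sox9 rose 1.31-fold and 0 fell. The part of these shifts in the results was not tested. Diquat replicate 3 lay farthest from its group mates (root-mean-square difference 0.13, against 0.07 to 0.12 for the other arrays), and without it the same 5 genes passed with diquat. Less RNA of a gene per cell and fewer cells that express it cannot be told apart in these bulk samples.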

How the data were processed

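The deposited table holds 1 log2 value per feature and array, which the authors made with Affymetrix Expression Console 1.1 and RMA, per the submitters' processing notes. The sources used here give no RMA settings and no annotation build. Groups and replicate numbers came from the sample titles. Nothing in the labels marks the dishes as separate cultures. The p-values therefore reflect only how far these samples scatter, possibly for technical reasons, and 3 arrays per group limit precision.

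Of 34472 features, 23521 carried 1 gene symbol in the platform annotation and gave 22180 genes, with the brightest feature kept for 1082 genes with several. All 9 arrays were fitted at once with limma 3.58.1 (R 4.3.3), 1 mean per group, with Benjamini-Hochberg adjustment over all genes. The fit was tested on simulated data. Alternatives were a replicate block, a robust prior with a trend, centring, dropping dim genes, quantile normalization, the 2 groups alone, the mean of features, array weights and leaving out each array. For the pair differences, quantile normalization and leaving out each array were chosen after seeing the data.

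The 10 genes and the 8 lists (99 of 107 entries measured) were chosen with earlier results of these data known. Named from each list were up to 4 genes that passed with the largest change, or the top 2. Promoter windows are from RefSeq.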

Additional observations from a re-analysis of the deposited data

How the results depend on the processing

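The 5 calls of Egr1, Egr2, Nr4a1, Ier3 and Ier5 were made with each compound under all 14 alternatives of each comparison, and the other 5 genes passed under none. The log2 change over the alternatives lay between 0.85 and 0.92 for Ier3 with diquat, 0.61 and 0.69 for Ier3 with paraquat, 0.64 and 0.71 for Egr1 with diquat, and 0.53 and 0.63 for Egr1 with paraquat. For Nr4a1 it lay between 0.49 and 0.56 with diquat and 0.62 and 0.68 with paraquat. Between paraquat and diquat 0 of the 10 genes passed under any alternative. Ier2 came closest to a call with diquat, at an adjusted p of 0.0597 to 0.336. Nr4a3 was left out by the filter on dim genes. Same-numbered arrays did not deviate together (correlations of -0.19 to 0.20), and the descriptions give some of them another number, so they share a number only. With the replicate block, 5 of the 10 genes passed with each compound, and 1416 and 930 of all genes. The count over all genes moved more: for diquat it was 1558, with 959 in the fit of the 2 groups alone and 802 to 1908 with 1 array left out. For paraquat it was 1014, with 1623 under array weights and 574 to 871 with 1 array left out. Between the compounds it was 0, with 4 after the filter on dim genes, 1 after centring, 4 after quantile normalization and 0 to 3 with 1 array left out. Of 656 values of other named genes under alternatives, 609 kept their side of the threshold, 42 lost a call, 5 gained one and 0 changed sign as a call. Of 672 list counts, 56 moved by over 1.5 times. In size, all 9 pair differences kept within the spread of their arrays under the alternatives. This does not carry over to their exact tests. Each pair that passed with both compounds together did so at the smallest p that test can give, 0.0238. That smallest p is larger with fewer arrays, so the passed pair tests are not shown to hold with 1 array left out. Counts moved by over 1.5 times without control replicate 1, 2 or 3 (diquat) and without control replicate 1 or 2 or paraquat replicate 2 or 3 (paraquat). The cause was not tested. No detection calls bound the dim genes.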
